A study of Mus musculus with 8 samples.

Results

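The p53 pathway and the regulators of apoptosis were followed as a list of 41 genes, namely the p53 family and its inhibitors, p53 target genes, the Bcl2 family, caspases with their activators, and death receptors. A gene was included when its symbol was in this list, and it was measured when a probe set carried that symbol and no other. This gave 38 measured genes of 19938 named genes in all, each with 1 probe set. Trp53, which encodes p53, the cyclin-dependent kinase inhibitor gene Cdkn1a and the pore-forming effector gene Bax had no probe set of their own in the annotation used and were not analysed here. Testes of Ing2-/- mice (n = 5) were compared with testes of Ing2+/+ littermates (n = 3), all male and 2 to 3 months old, with 1 array per mouse of whole testis RNA. Ing2-/- mice carried a deletion of an Ing2 exon that had been targeted in embryonic stem cells. Cre from an EIIa-Cre transgene had made the deletion in earlier generations, the transgene was removed by breeding to C57BL/6J mice, and no tissue-specific driver was involved. The labels do not say which mice shared a litter, and the p-values measure the spread between these mice. The study asked how Ing2 loss affects spermatogenesis, and it examined p53 and apoptosis in these testes by other assays.

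Background on the pathway is as follows. The transcription factor p53 is held at a low level by Mdm2 and Mdm4, and when it is stabilized it raises target genes that stop the cell cycle, repair damage or kill the cell. Mitochondrial apoptosis is decided within the Bcl2 family. BH3-only proteins switch on the pore-forming Bax, Bak1 and possibly Bok, anti-apoptotic members hold them back, and released cytochrome c lets Apaf1 activate Casp9. In the testis, apoptosis removes surplus and damaged germ cells in every wave of spermatogenesis.

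Ing2 itself had log2 levels of 5.29 ± 0.22 (SD, n = 5) in Ing2-/- and 7.46 ± 0.13 (SD, n = 3) in Ing2+/+ testes, a log2 difference of -2.16 (adjusted p = 3.95e-04 from limma). All levels are RMA values on the log2 scale, and every difference is the Ing2-/- mean minus the Ing2+/+ mean. Across all probe sets, each Ing2+/+ array had a mean Pearson r of 0.995 with the others of its genotype, and Ing2-/- arrays had 0.990 to 0.992 except replicate 3 with 0.983. The cell type markers moved with genotype, and most in replicate 3. The mean level of 15 Sertoli cell markers, relative to the Ing2+/+ mean, lay between 0.27 and 1.02 in Ing2-/- and between -0.01 and 0.01 in Ing2+/+ arrays, and that of 7 Leydig cell markers between 0.37 and 1.11 in Ing2-/- and between -0.06 and 0.03 in Ing2+/+ arrays. For 9 macrophage markers the ranges were 0.14 to 0.67 in Ing2-/- and -0.01 to 0.01 in Ing2+/+ arrays. The 16 round spermatid markers lay between -0.92 and -0.15 in Ing2-/- and between -0.01 and 0.01 in Ing2+/+ arrays. The 16 markers of elongating spermatids and sperm lay between -0.58 and -0.13 in Ing2-/- and between -0.04 and 0.04 in Ing2+/+ arrays, and those of pachytene spermatocytes between -0.49 and -0.10 in Ing2-/- and between -0.02 and 0.01 in Ing2+/+ arrays. In whole testis RNA, fewer cells of a type and less RNA per cell cannot be told apart. The part of the cell mix in the differences below was tested only as a covariate, which itself separates the genotypes (0.46 to 1.77 in Ing2-/- and -0.03 to 0.04 in Ing2+/+ arrays).

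Of the 38 measured genes, 1 was called lower and 0 were called higher in Ing2-/- testes at an adjusted p under 0.05 from limma over all probe sets. Over all named genes, 3.01% were called lower and 1.97% higher, 4.98% in all, and the 1 call among 38 genes (2.63%) is too few to set against these shares. Without a correction the picture was less even. At an unadjusted p under 0.05 from limma 16 genes were higher and 2 lower (47.4% of 38), where 16.5% of all genes were higher and 13.5% lower (30.0% together). With the cell mix as a covariate, 4 of the 38 genes were higher and 2 lower at this threshold. Without Ing2+/+ replicate 1, 10 were higher and 1 lower. In 14 genes every Ing2-/- array lay above every Ing2+/+ array and in 2 genes below, 42.1% of the list, against 16.7% and 14.9% of all genes (31.6% together). With equal array medians 10 of the 38 genes lay above and 3 below, where 30.8% of all genes did not overlap. The median log2 difference of the list was 0.17, and that of all genes 0.02. The differences ran from -0.68 to 0.71, with 28 above and 10 below 0. The median was 0.05 with the cell mix as a covariate, 0.13 without Ing2-/- replicate 3, and 0.13 and 0.12 after cyclic loess and with equal array medians. Without Ing2-/- replicate 3 limma called 7 of the 38 genes higher and 1 lower (21.1%), where 8.72% of all genes were then called higher and 7.76% lower (16.5% together). Without Ing2+/+ replicate 1, 2 or 3 it called 0 of the 38 genes higher and 0 lower. Of all genes, 0.246%, 0.201% and 0.747% were then called.

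**Figure D1:**
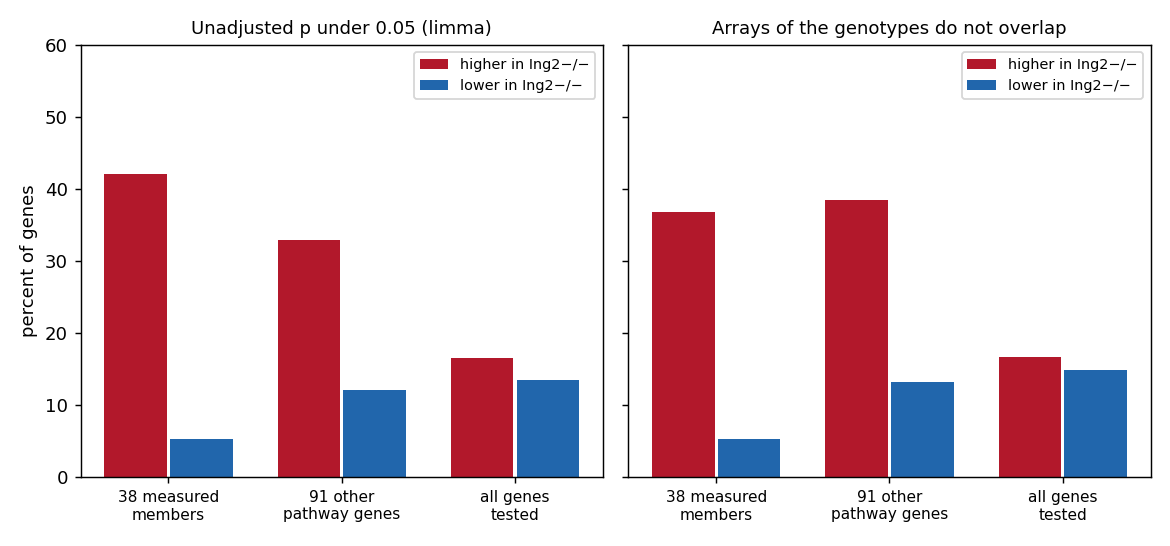
Percent of the 38 measured p53 pathway and apoptosis genes, of 91 other genes of these pathways and of all 19938 genes (horizontal axis) that were higher (red) or lower (blue) in Ing2-/- than in Ing2+/+ testes, by an unadjusted p under 0.05 from limma (left) or because the arrays of the genotypes did not overlap (right). Of the 38 genes, 42.1% were higher at the unadjusted threshold against 16.5% of all genes, and 5.26% were lower against 13.5%.

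**Figure D2:**
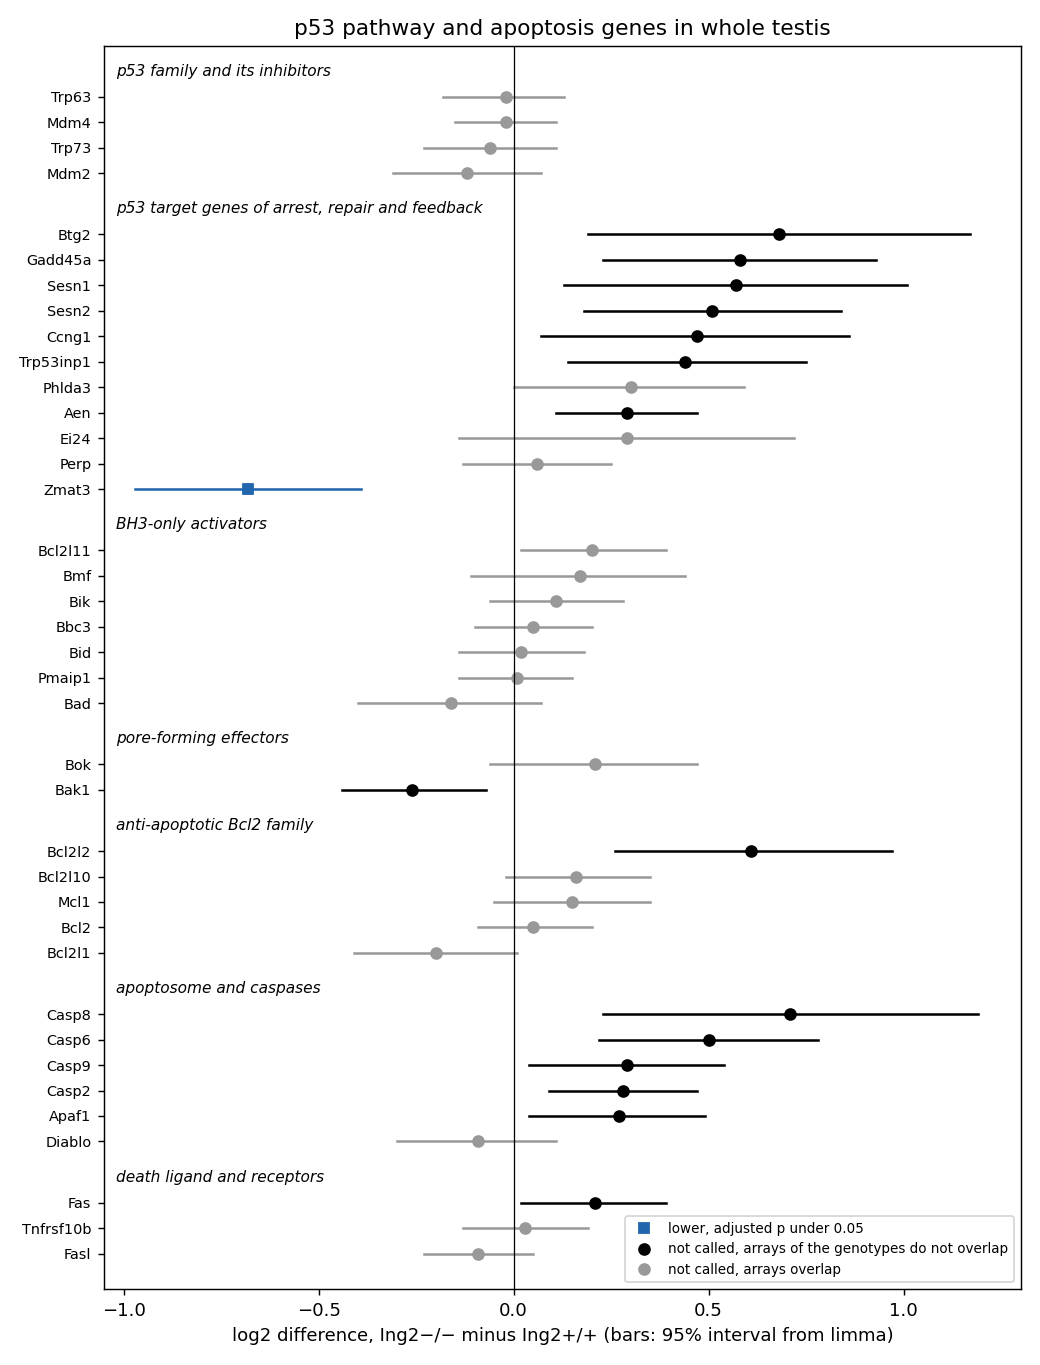
Log2 difference of each of the 38 measured genes, Ing2-/- minus Ing2+/+ (horizontal axis), with its 95% interval from limma, grouped by role. The single called gene, Zmat3 (square), had -0.68, and most target genes and caspases lay to the right of 0 without passing the adjusted threshold.

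Among the p53 family and its inhibitors, no difference was detected. Mdm2, the ubiquitin ligase that degrades p53 and is at the same time one of its target genes, had log2 levels of 9.73, 9.66, 9.45, 9.74 and 9.78 in Ing2-/- testes, against 9.82, 9.78 and 9.76 in Ing2+/+ testes. The arrays of the genotypes overlapped, and replicate 3 was the lowest. The log2 difference was -0.12, with a 95% interval from -0.31 to 0.07 (adjusted p = 0.404 from limma), and with the cell mix in the fit it was 0.05. Without replicate 3 it was -0.06. Mdm4, which blocks the activation domain of p53, had 9.36 ± 0.03 (SD, n = 5) in Ing2-/- and 9.38 ± 0.03 (SD, n = 3) in Ing2+/+ testes, with an interval of its difference from -0.15 to 0.11. The relatives Trp63 and Trp73, which have germline and developmental functions of their own, had differences of -0.02 (interval -0.18 to 0.13) and -0.06 (-0.23 to 0.11). Increases in the mRNA of the 4 genes beyond 0.13 on the log2 scale thus lay outside these intervals.

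Of the 12 p53 target genes of arrest, repair and feedback, 11 were measured, and 1 was called lower and 0 higher by limma. At an unadjusted p under 0.05 from limma, 8 were higher and 1 lower, where 16.5% of all genes were higher and 13.5% lower. Of the differences, 10 were above 0, and the median was 0.44. This role leaves out p53 target genes grouped under other roles, such as Mdm2 and Bbc3, so the median describes these 11 genes only. Over all 19938 genes, 10818 differences were above 0, and the median was 0.02. For orientation, the bases before the transcription start were searched for the p53 half-site, the consensus of which p53 binds a pair. The half-site is its own reverse complement, so a match stands on both strands, and overlapping matches were counted. In the 250 bases before any annotated start, 5 of the 8 measured target genes with an entry in RefSeq's promoter sequences (GRCm38.p6) held a match to it (62.5%). The same held for 8 of 30 measured genes of the whole list (26.7%), and for 8.2% of 27025 genes of all kinds. The genes were listed because they are known as p53 targets, so the share describes the list. Btg2, Sesn2 and Phlda3 held no match, and Zmat3, Trp53inp1 and Perp had no entry to search. Shown here are the matches in the 5 target genes and Mdm2, with the half-site in capitals, so that the element can be set beside the levels given next. Matches in Bmf and Fasl are not shown. The match in Aen lies downstream of another annotated start of that gene and is given with shorter flanks.
Ccng1, chr11:40755437-40755496, minus strand: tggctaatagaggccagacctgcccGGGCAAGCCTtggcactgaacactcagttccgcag
Gadd45a, chr6:67037413-67037472, minus strand: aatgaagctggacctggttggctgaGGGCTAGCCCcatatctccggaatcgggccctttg
Sesn1, chr10:41887241-41887300, plus strand: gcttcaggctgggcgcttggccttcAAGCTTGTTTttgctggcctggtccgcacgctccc
Ei24, chr9:36797335-36797394, minus strand: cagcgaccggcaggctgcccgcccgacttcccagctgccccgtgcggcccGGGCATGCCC
Aen, chr7:78895927-78895956, plus strand: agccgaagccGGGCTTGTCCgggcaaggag
Mdm2, chr10:117710910-117710969, minus strand: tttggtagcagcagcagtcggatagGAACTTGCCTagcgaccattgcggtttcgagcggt
These are matches of letters, and binding of p53 there was not measured. The half-site ends 176, 31, 164, 1, 112 and 177 bases before the start in the order of the lines.

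Zmat3, which encodes an RNA-binding zinc finger protein induced by p53 and known as Wig-1, was the called gene. Its log2 levels were 6.69, 6.63, 6.13, 6.46 and 6.27 in Ing2-/- testes, against 7.11, 7.09 and 7.16 in Ing2+/+ testes. Every Ing2-/- array lay below every Ing2+/+ array, with replicate 3 the lowest. It fell by 0.68 on the log2 scale in Ing2-/- testes (SE 0.127, 95% interval -0.97 to -0.39, adjusted p = 0.0269 from limma), a level 1.6-fold lower. The other 10 measured genes of this role had differences above 0, while Mdm2, grouped with the p53 inhibitors, had -0.12. Of the 31 measured genes listed as other p53 targets and counted below, 10 had differences below 0. The call of Zmat3 was lost without Ing2-/- replicate 5 (adjusted p = 0.0704) and without Ing2+/+ replicate 1, 2 or 3 (adjusted p = 0.112, 0.110 and 0.0980), where the difference stayed between -0.70 and -0.64. Once the cell mix was in the fit, the difference was -0.40 (adjusted p = 0.192), smaller by over 1.5 times.

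Btg2, an antiproliferative cofactor of mRNA deadenylation, had the largest positive difference of the target genes. Its log2 levels were 6.64, 6.68, 6.74, 6.37 and 7.49 in Ing2-/- testes, against 6.02, 6.18 and 6.10 in Ing2+/+ testes. All Ing2-/- arrays were above the Ing2+/+ arrays, and the highest was replicate 5, not replicate 3. The log2 difference was 0.68 (SE 0.214, adjusted p = 0.0902 from limma), and 0.57 once the cell mix was in the fit (adjusted p = 0.484). Gadd45a, which encodes a stress protein that binds PCNA and p21, had 7.46, 7.44, 8.09, 7.45 and 7.84 in Ing2-/- testes, against 7.02, 7.06 and 7.13 in Ing2+/+ testes. The genotypes did not overlap, and the difference was 0.58 (adjusted p = 0.0630 from limma), 0.48 without replicate 3 (adjusted p = 0.0241) and 0.19 once the cell mix was in the fit. The adjusted p from limma was 0.188, 0.188 and 0.160 without Ing2+/+ replicate 1, 2 or 3. Levels by array are given for Gadd45a and for Sesn1, Casp6 and Mcl1 below because their values stood out or served as contrast once seen.

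Sesn1 and Sesn2, which encode sestrins, stress proteins that restrain mTORC1 signalling, lay higher without passing the adjusted threshold. Sesn3, listed with the other p53 targets below, had a difference of 0.02 with overlap (adjusted p = 0.914 from limma). Sesn1 had 8.80, 8.69, 9.62, 8.84 and 8.82 in Ing2-/- testes, against 8.37, 8.31 and 8.46 in Ing2+/+ testes. Replicate 3 was far above its group, while the other Ing2-/- arrays lay together and still above the Ing2+/+ arrays. The difference was 0.57 (adjusted p = 0.105 from limma), 0.41 without replicate 3 (adjusted p = 0.00994), and 0.05 once the cell mix was in the fit. With Ing2+/+ replicate 1, 2 or 3 left out, the adjusted p from limma was 0.243, 0.261 and 0.214. Sesn2 had 8.62 ± 0.24 (SD, n = 5) in Ing2-/- and 8.11 ± 0.19 (SD, n = 3) in Ing2+/+ testes, a difference of 0.51 (adjusted p = 0.0721 from limma), with 0.41 and an adjusted p of 0.0284 without replicate 3, and 0.20 once the cell mix was in the fit (adjusted p = 0.594). For Sesn2 the adjusted p from limma without Ing2+/+ replicate 1, 2 or 3 was 0.223, 0.190 and 0.136.

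The remaining targets divided into those without overlap and those with it. Trp53inp1, a nuclear and autophagic stress protein, had 8.96 ± 0.25 in Ing2-/- and 8.51 ± 0.08 in Ing2+/+ testes (SD, n = 5 and 3), a difference of 0.44 (adjusted p = 0.0858 from limma). Without replicate 3 it had 0.34 (adjusted p = 0.0210), and with the cell mix in the fit 0.09 (adjusted p = 0.701). Its adjusted p from limma without Ing2+/+ replicate 1, 2 or 3 was 0.218, 0.238 and 0.179. The cyclin G1 gene Ccng1 had 8.33 ± 0.34 in Ing2-/- and 7.87 ± 0.05 in Ing2+/+ testes (adjusted p = 0.132 from limma), and the exonuclease gene Aen 7.04 ± 0.09 in Ing2-/- and 6.75 ± 0.12 in Ing2+/+ testes (adjusted p = 0.0685 from limma). With the cell mix as a covariate the difference was 0.31 for Aen, against 0.29 without it, and 0.05 for Ccng1, against 0.47 without it. Replicate 3 was not the highest array for Aen. For Phlda3, which encodes an inhibitor of Akt, the difference was 0.30 (interval 0 to 0.59) and for Ei24, an endoplasmic reticulum protein gene, 0.29 (-0.14 to 0.72), with overlap between the genotypes. Without replicate 3 Ei24 had 0.14. Perp, an epithelial desmosome gene, lay on all 8 arrays below the median of unnamed probe sets, those with no symbol in the annotation (5.54 to 5.62 in Ing2-/- and 5.47 to 5.51 in Ing2+/+ arrays), so it was not shown to be above background.

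**Figure D3:**
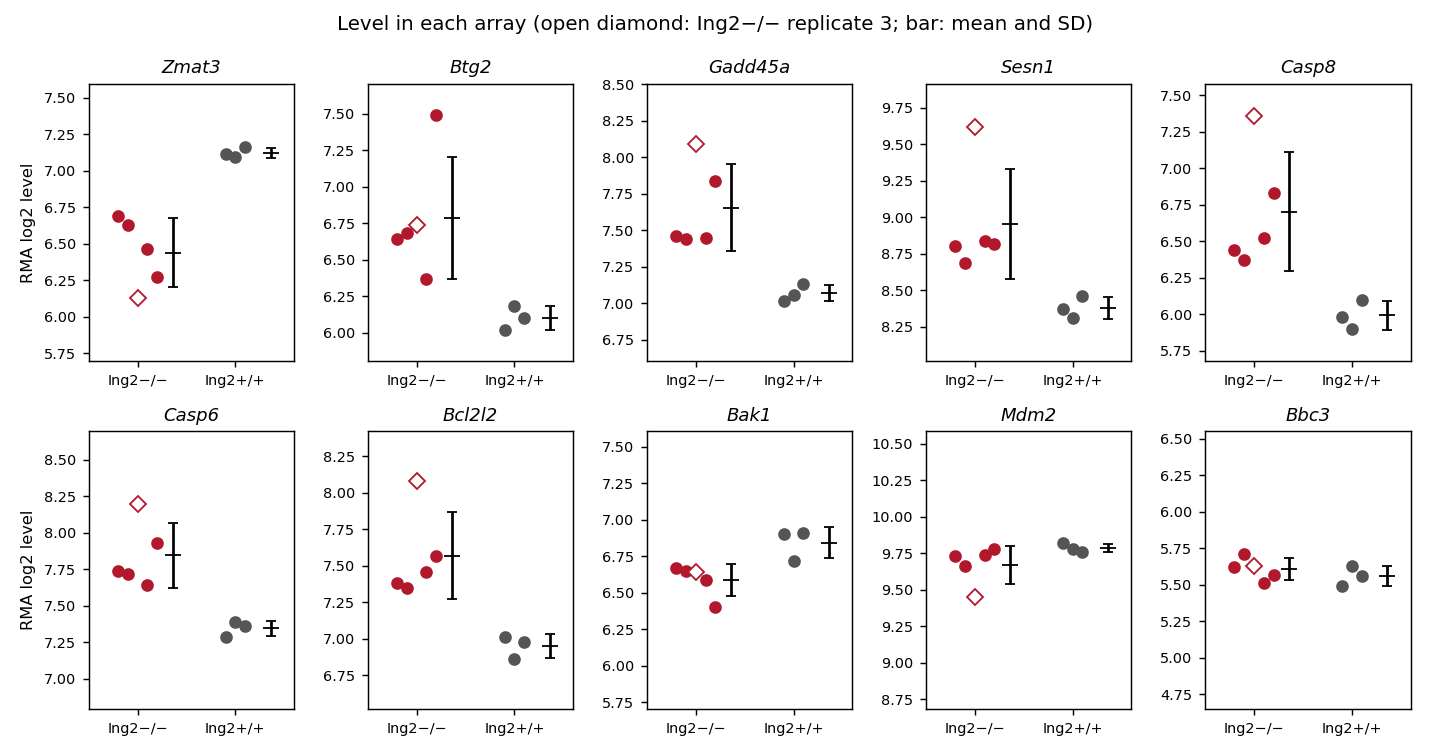
RMA log2 level (vertical axes, each spanning the same range of log2 units) of 10 genes in each of 5 Ing2-/- (red, left) and 3 Ing2+/+ (grey, right) testes, with Ing2-/- replicate 3 as an open diamond and the mean and SD beside each group. Zmat3 levels lay between 6.13 and 6.69 in Ing2-/- and between 7.09 and 7.16 in Ing2+/+ testes, whereas Mdm2 and Bbc3 levels of the genotypes overlapped.

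BH3-only genes, whose products relay death signals to the mitochondrion, gave 0 calls from limma and 0 from the methods' t-test, and 1 higher and 0 lower at an unadjusted p under 0.05. Over all genes, 16.5% were higher and 13.5% lower at that threshold. All 7 BH3-only genes were measured, and in none of them were the genotypes apart. Bbc3, which encodes PUMA, had log2 levels of 5.62, 5.71, 5.63, 5.51 and 5.57 in Ing2-/- testes, against 5.49, 5.63 and 5.56 in Ing2+/+ testes. The groups overlapped almost fully. The difference was 0.05 with a 95% interval from -0.10 to 0.20 (adjusted p = 0.685 from limma). Its level was above the median of the unnamed probe sets on 5 of 8 arrays, so it was not shown to be above background on the other 3. Bcl2l11, which encodes BIM, had the largest difference of the group, with 6.86, 6.76, 7.02, 6.95 and 7.07 in Ing2-/- testes, against 6.78, 6.67 and 6.73 in Ing2+/+ testes. Replicate 2 fell among the Ing2+/+ arrays, and the difference was 0.20 (interval 0.02 to 0.39, adjusted p = 0.154 from limma). Pmaip1, which encodes NOXA, had 0.01 (interval -0.14 to 0.15), and Bid, which links death receptors to the mitochondrion, 0.02 (-0.14 to 0.18). Bmf had 0.17, and 0.10 without Ing2-/- replicate 3. Bik had 0.11, and 0.20 and 0.06 without Ing2+/+ replicates 2 and 3. Bad, which is controlled by survival kinases, had -0.16 (interval -0.40 to 0.07). For Pmaip1 and Bid the sign changed under cyclic loess, equal array medians and other settings.

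Of the pore-forming effectors, Bak1 and Bok were measured. Bak1 had log2 levels of 6.67, 6.65, 6.64, 6.59 and 6.40 in Ing2-/- testes, against 6.90, 6.72 and 6.91 in Ing2+/+ testes. All Ing2-/- arrays lay below the Ing2+/+ arrays, with a narrow margin between Ing2-/- replicate 1 and Ing2+/+ replicate 2. The log2 difference was -0.26 (SE 0.0825, interval -0.44 to -0.07, adjusted p = 0.0951 from limma). It was -0.27 over the other 4 Ing2-/- arrays without replicate 3, and -0.26 once the cell mix was in the fit (adjusted p = 0.374). Bok, best known from the gonads, had 7.54 ± 0.21 (SD, n = 5) in Ing2-/- and 7.33 ± 0.05 (SD, n = 3) in Ing2+/+ testes, with overlap (adjusted p = 0.290 from limma).

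The anti-apoptotic genes did not move together. Bcl2l2, which encodes BCL-W, a survival factor that adult mouse spermatogenesis needs, had 7.38, 7.35, 8.08, 7.46 and 7.57 in Ing2-/- testes, against 7.01, 6.86 and 6.98 in Ing2+/+ testes. Every Ing2-/- array was above every Ing2+/+ array, and replicate 3 was the highest. The log2 difference was 0.61 (SE 0.158, interval 0.26 to 0.97, adjusted p = 0.0588 from limma). It was 0.49 without replicate 3 (adjusted p = 0.00843) and 0.19 once the cell mix was in the fit (adjusted p = 0.368). The adjusted p from limma was 0.166, 0.194 and 0.159 without Ing2+/+ replicate 1, 2 or 3, and 0.122 without Ing2-/- replicate 5. Bcl2l1, which encodes BCL-XL, had 9.13 ± 0.14 (SD, n = 5) in Ing2-/- and 9.33 ± 0.09 (SD, n = 3) in Ing2+/+ testes, a difference of -0.20 (interval -0.41 to 0.01, adjusted p = 0.194 from limma). Mcl1, a short-lived survival protein, had 9.85, 9.66, 10.07, 9.83 and 9.88 in Ing2-/- testes, against 9.71, 9.73 and 9.69 in Ing2+/+ testes. Replicate 2 lay below all Ing2+/+ arrays and the other Ing2-/- arrays above them, with a difference of 0.15 (adjusted p = 0.311 from limma), and 0.09 without replicate 3. Bcl2 had 0.05 (interval -0.09 to 0.20). Bcl2l10 lay below the median of the unnamed probe sets on all 8 arrays and was not shown to be above background.

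Among the apoptosome and caspases, 0 of 6 genes were called by limma or the methods' t-test, but 5 were higher at an unadjusted p under 0.05 and in these 5 the genotypes did not overlap. Over all genes, 16.5% were higher at that threshold and 16.7% lay higher without overlap. The median log2 difference of the 6 genes was 0.29, and that of all genes 0.02. Casp8, the initiator caspase of death receptors, had the largest positive difference of the whole list. Its log2 levels were 6.44, 6.37, 7.36, 6.52 and 6.83 in Ing2-/- testes, against 5.98, 5.90 and 6.10 in Ing2+/+ testes. Replicates 3 and 5 were the highest. The difference was 0.71 (SE 0.210, interval 0.23 to 1.19, adjusted p = 0.0794 from limma), 0.54 without replicate 3 (adjusted p = 0.0195) and 0.14 once the cell mix was in the fit. With Ing2+/+ replicate 1, 2 or 3 left out, the adjusted p from limma was 0.208, 0.225 and 0.179. Casp6, an executioner caspase, came closest to a call with higher levels, at 7.74, 7.72, 8.20, 7.64 and 7.93 in Ing2-/- testes, against 7.29, 7.39 and 7.36 in Ing2+/+ testes. The gap between the genotypes was wider than the range within Ing2+/+ testes. Its difference was 0.50 (SE 0.122, adjusted p = 0.0524 from limma), 0.41 without replicate 3 (adjusted p = 0.0150), and 0.19 once the cell mix was in the fit (adjusted p = 0.360). Without replicate 4 it was also called, with the adjusted p-values over all settings running from 0.0110 to 0.360.

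The mitochondrial branch lay at smaller differences. Apaf1, the scaffold of the apoptosome, had 7.07 ± 0.17 in Ing2-/- and 6.81 ± 0.04 in Ing2+/+ testes (SD, n = 5 and 3), a difference of 0.27 (adjusted p = 0.127 from limma). Casp9, which it activates, had 7.87 ± 0.19 in Ing2-/- and 7.58 ± 0.07 in Ing2+/+ testes, a difference of 0.29 (adjusted p = 0.130 from limma). Casp2, activated in a complex with the p53 target Pidd1, had 7.26 ± 0.12 in Ing2-/- and 6.98 ± 0.06 in Ing2+/+ testes, a difference of 0.28 (adjusted p = 0.0786 from limma). With the cell mix as a covariate the 3 genes had 0.04, 0.05 and 0.16. Diablo, which encodes the antagonist of caspase inhibitors Smac, had -0.09 (interval -0.30 to 0.11) and overlapped.

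Of the death ligand and receptors, Fas had 4.46, 4.48, 4.76, 4.59 and 4.58 in Ing2-/- testes, against 4.34, 4.35 and 4.42 in Ing2+/+ testes. The arrays did not overlap and the difference was 0.21 (adjusted p = 0.141 from limma). Fas and its ligand Fasl, with -0.09 (interval -0.23 to 0.05), both lay below the median of the unnamed probe sets on all 8 arrays, so neither was shown to be above background. Tnfrsf10b, the mouse receptor of the death ligand TRAIL, had 0.03 (interval -0.13 to 0.19).

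**Figure D4:**
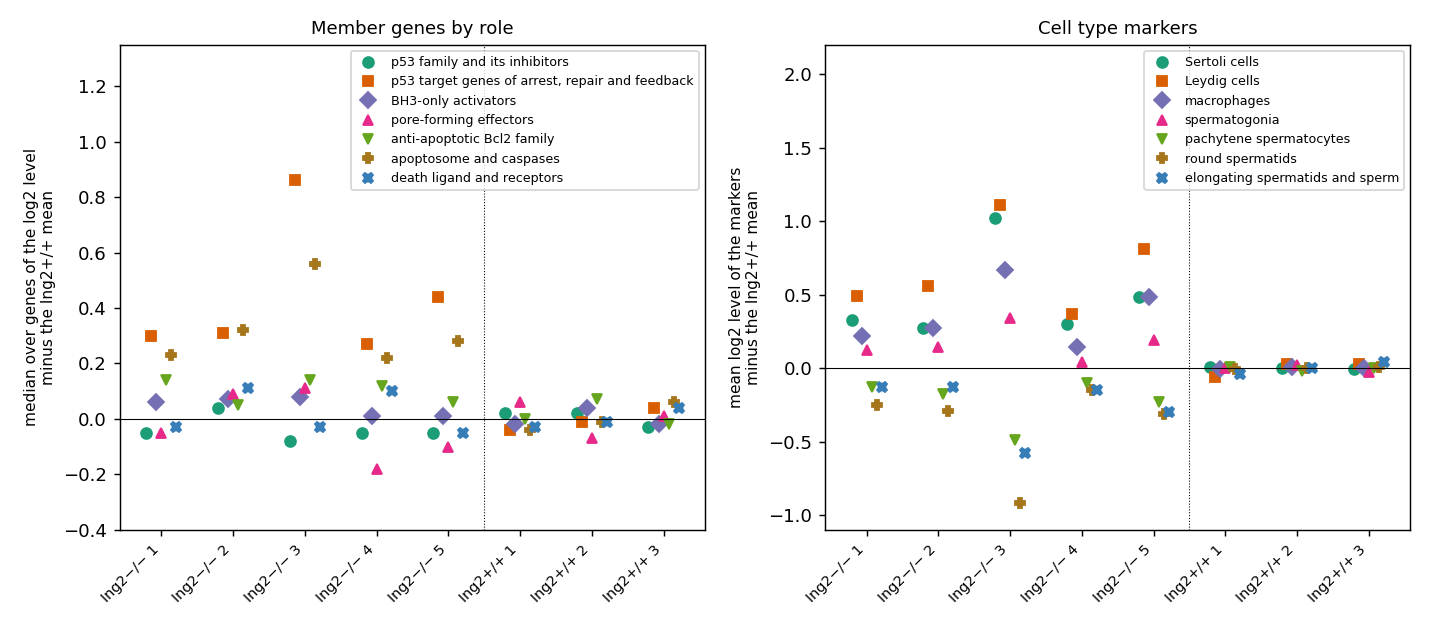
Left, median over the genes of each role of the log2 level minus the Ing2+/+ mean (vertical axis) in each of 5 Ing2-/- and 3 Ing2+/+ arrays (horizontal axis). Right, mean level of cell type markers on the same scale, where replicate 3 of Ing2-/- has the highest Sertoli (1.02) and lowest round spermatid (-0.92) values and also the highest p53 target (0.86) and caspase (0.56) medians.

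The median of the 11 target genes over the Ing2+/+ mean was 0.30, 0.31, 0.86, 0.27 and 0.44 in Ing2-/- replicates 1 to 5, against -0.04, -0.01 and 0.04 in the Ing2+/+ arrays. That of the 6 apoptosome and caspase genes was 0.23, 0.32, 0.56, 0.22 and 0.28 in Ing2-/- and -0.04, -0.01 and 0.06 in Ing2+/+ arrays. In both roles replicate 3 stood highest and replicate 4 lowest. The 7 BH3-only genes spread less, from 0.01 to 0.08 in Ing2-/- arrays and from -0.02 to 0.04 in Ing2+/+ arrays. The 4 p53 family and inhibitor genes lay between -0.08 and 0.04 in Ing2-/- and between -0.03 and 0.02 in Ing2+/+ arrays. The markers of Leydig cells, macrophages, endothelial cells and spermatogonia were likewise highest in replicate 3 and lowest in replicate 4 of the Ing2-/- arrays. Those of Sertoli and peritubular myoid cells were highest in replicate 3 and lowest in replicate 2.

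Other genes of these pathways were counted from a list of 97, of which 91 were measured. Limma called 2 of them higher and 0 lower (2.2%, against 4.98% of all genes), as did the methods' t-test, while 30 were higher and 11 lower at an unadjusted p under 0.05 (45.1%, against 30.0% of all genes). In 35 genes all Ing2-/- arrays were above and in 12 below the Ing2+/+ arrays (51.6%, against 31.6% of all genes). The 37 listed genes of execution and cell death (34 measured) and the 26 other p53 regulators and partners (26 measured) gave 0 calls by limma, with 15 higher and 2 lower, and 4 higher and 6 lower, at an unadjusted p under 0.05. Both called genes stood among the 31 measured genes listed as other p53 targets, and their regulation by p53 was not tested. Ccnd2, which encodes the cell cycle driver cyclin D2, had 8.37, 8.31, 8.62, 8.43 and 8.32 in Ing2-/- testes, against 7.92, 7.85 and 7.92 in Ing2+/+ testes. It was higher by 0.51 on the log2 scale (SE 0.0822, adjusted p = 0.0179 from limma), with the Ing2-/- arrays close together. Ddit4, which encodes the mTORC1 inhibitor REDD1, had 7.53, 7.47, 8.0, 7.51 and 7.57 in Ing2-/- testes, against 6.92, 7.07 and 7.12 in Ing2+/+ testes. It was higher by 0.58 (SE 0.124, adjusted p = 0.0398 from limma), and by 0.48 without replicate 3 (adjusted p = 0.00628). With the cell mix as a covariate Ccnd2 had 0.36 (adjusted p = 0.118) and Ddit4 0.27 (adjusted p = 0.242), the second smaller by over 1.5 times. Both calls were lost without Ing2+/+ replicate 1, 2 or 3 (adjusted p = 0.0884, 0.0960 and 0.0593 for Ccnd2, and 0.153, 0.135 and 0.102 for Ddit4). That of Ddit4 was also lost without Ing2-/- replicate 1, 2 or 5 (adjusted p = 0.0616, 0.0524 and 0.0891).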

How the data were processed

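RNA from the testes of 5 Ing2-/- and 3 Ing2+/+ males was measured on Affymetrix Mouse Gene 1.0 ST arrays, 1 per mouse. The authors normalized the arrays with RMA in Affymetrix Expression Console, and the deposited log2 values of 35557 probe sets were used without centring. RMA equalizes the arrays, so a level is set against the rest of the RNA of that testis. The medians of the deposited values still lay between 6.46 and 6.53 in Ing2-/- and between 6.41 and 6.45 in Ing2+/+ arrays. Of the probe sets, 21789 carried 1 gene symbol, 1621 several and 12147 none in the platform annotation, and 21698 symbols were updated by gene identifier with RefSeq's gene table (GRCm38.p6). The brightest probe set over 8 arrays stood for a gene. The test was limma 3.58.1 (lmFit and eBayes in R 4.3.3) on genotype alone. A gene was called where its p, adjusted by Benjamini-Hochberg across every probe set, was under 0.05. The methods' t-test on a random variance model was run beside it. No cutoff on dim probe sets was used, and 0 columns were left out. The member genes and lists were chosen with earlier results of these data known. Genes named are Ing2, all members, and called genes of the second list, with levels by array for called members, Bbc3 and the largest difference in each role. On simulated data for 5 against 3 arrays and 35557 probe sets, limma called 44.8% of 67 probe sets changed by 0.5 (log2), 82.1% of 67 changed by 1 and 97.0% of 66 changed by 2, with 6 false calls of 155. The simulated noise was normal and independent between probe sets and arrays, without a shift shared by many genes as in Ing2-/- replicate 3. These shares need not hold for the real arrays. The number of arrays limits the precision. Alternatives were each array left out, a replicate block, filters on dim or unnamed probe sets, cyclic loess, equal array medians, an intensity trend with robust estimation, array weights, averaged probe sets per gene, the cell mix (Sertoli minus spermatid markers) as a covariate and a 1.5-fold minimum. Figures were drawn with matplotlib 3.10.9.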

Additional observations from a re-analysis of the deposited data

Results flagged for a closer look

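In 2 of the 38 genes (5.26%) a single Ing2-/- array lay far from the other 4, judged by its gap to the nearest array over the range of the group (Dixon's critical value 0.71 for 5 arrays). Chance alone gives about 1 in 20 groups, and among all 19938 genes 10.7% had such an array. For Sesn1 the ratio was 0.84, with 9.62 in Ing2-/- replicate 3 against 8.69 to 8.84 in the other Ing2-/- arrays. For Trp63 it was 0.749, with 6.44 in replicate 2 against 6.23 to 6.28 in the others. The Ing2+/+ arrays, 3 in number, were not examined in this way.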

How the results depend on the processing

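The count of member genes called higher, 0, was 3 among probe sets above the median level, 3 among those with 1 gene symbol, 3 with averaged probe sets per gene (Gadd45a, Bcl2l2 and Casp6 each time) and 11 with array weights (0.21 for Ing2-/- replicate 3, 0.85 to 2.05 for the others), and between 0 and 7 with 1 array left out. The count called lower, 1, was 0 with the replicate block, 0 with the cell mix in the fit, and 0 to 1 with 1 array left out. Other pathway genes called higher, 2, were 7 above the median level, 8 with 1 symbol, 8 with averaged probe sets, 25 with array weights, 0 with the replicate block, 0 with the cell mix, 0 with a 1.5-fold minimum, and 0 to 17 with 1 array left out. Those called lower, 0, were 4 with array weights and 0 to 3 with 1 array left out. Over all genes with a value, 4.98% were called in the main fit and 11.6% above the median level, where 27 members had a value. The share was 8.26% with 1 symbol, 8.1% with averaged probe sets, 20.6% with array weights and 0.582% with the cell mix. With 1 array left out it ran from 0.201% to 16.5%. Both filters and the averaging test fewer features. The causes of the shifts in all these counts were not tested. Ing2 had -2.15 with the replicate block (adjusted p = 0.0612), a fit in which 0 genes of all were called. Same-numbered arrays had correlations of their deviations of -0.07, 0.13 and -0.05 over 19938 genes, and 1 of 3 Ing2+/+ arrays correlated best with its own number. With 3 Ing2+/+ arrays this cannot decide whether the numbers pair mice, and the labels do not say. Over all genes 392 were called higher and 600 lower, 289 and 904 after cyclic loess, 257 and 692 with equal medians, and 2256 and 1851 with array weights. Signs of uncalled genes turned as follows. With the cell mix Trp63 had 0.04, Mdm2 0.05, Mdm4 0.02, Ei24 -0.21, Pmaip1 -0.06, Bid 0, Bad 0.05, Bmf -0.04, Bcl2 -0.02, Mcl1 -0.03 and Diablo 0.08. After cyclic loess Pmaip1 had -0.07, Bid -0.05 and Tnfrsf10b -0.03, and with equal medians Bbc3 0, Pmaip1 -0.04, Bid -0.03 and Tnfrsf10b -0.02. Pmaip1 had -0.02 with array weights. With 1 array left out Trp63 ranged from -0.06 to 0, Pmaip1 from -0.02 to 0.02, Bid from -0.02 to 0.06 and Tnfrsf10b from 0 to 0.05. Among fits of single members under the alternatives, 652 kept direction and side of the threshold, 28 gained and 6 lost a call, and 25 turned sign.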

Other observations

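The genes named here lie outside the member list and were chosen after their values were seen. In 16.7% of all genes every Ing2-/- array lay above every Ing2+/+ array, as in Birc3 and Xiap, neither of which was called. Birc3, which encodes the inhibitor of apoptosis cIAP2, had 6.94, 6.99, 7.83, 7.08 and 7.43 in Ing2-/- testes, against 6.49, 6.61 and 6.29 in Ing2+/+ testes (log2 difference 0.79, adjusted p = 0.0568 from limma). Xiap, a direct caspase inhibitor, had 6.77, 6.68, 7.59, 6.91 and 7.16 in Ing2-/- testes, against 6.39, 6.38 and 6.37 in Ing2+/+ testes (0.64, adjusted p = 0.0771 from limma). Replicates 3 and 5 were the highest for both, as they were for Casp8. Of the other inhibitors of apoptosis in the second list, Birc2 had -0.01 (adjusted p = 0.951) and Birc5 -0.16 (adjusted p = 0.630), from limma, and their genotypes overlapped. Birc6 had 0.33 (adjusted p = 0.0716 from limma), and its genotypes did not overlap. The somatic cytochrome c gene Cycs had 0.60 (adjusted p = 0.115) and its testis-specific counterpart Cyct -0.22 (adjusted p = 0.382), from limma. Bcl2l14, a Bcl2 family gene, had 10.32, 10.28, 9.75, 10.46 and 10.25 in Ing2-/- testes, against 10.65, 10.65 and 10.64 in Ing2+/+ testes, a difference of -0.43 (adjusted p = 0.102 from limma). One marker listed for pachytene spermatocytes, Aldh1a1, was called higher at 0.89 (adjusted p = 0.0211 from limma), while Hspa2 of the same list was called lower at -0.40 (adjusted p = 0.0476). Aldh1a1 is also a somatic testis gene, and it entered the pachytene mean given above. Of the 13 measured markers of that list, 12 had differences below 0.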
